A study of Mus musculus with 15 samples.

Results

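Wild-type 6DT1 cells were compared with and without exposure to hydrogen peroxide (H2O2), across all genes. The line 6DT1 is derived from mouse mammary cancer, and its strain background is FVB/N1. All libraries of wild-type cells were taken: 4 from untreated cells (replicates 9 to 12) and 4 from cells given 1 µM H2O2 and lysed after 24 h (replicates 13 to 16), so 8 of the 15 libraries of the study. The other 7 libraries came from 6DT1 cells with Clic4 knocked out, 4 untreated and 3 given the same H2O2 treatment, and were used for a test of whether the response differed between genotypes. Of 55341 gene symbols with counts, 13085 passed a filter on low counts and were tested. Whether the replicates were separate cultures is not given in the labels, so p-values measure the spread between these libraries, which may be technical, and no vehicle is named for the untreated cells. In bulk RNA, a different mix of cells and a different amount of RNA per cell cannot be told apart.

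As background, cells reduce H2O2 with catalase, glutathione peroxidases and peroxiredoxins, the last of which are recharged by thioredoxin and sulfiredoxin. Oxidation of cysteines in KEAP1 releases the transcription factor NRF2, which binds antioxidant response elements and switches on genes such as Hmox1, Nqo1, Srxn1 and Txnrd1. Stronger oxidant stress is known to activate p53, the AP-1 factors and the heat shock response. Secretory proteins fold in the endoplasmic reticulum (ER), where unfolded proteins activate ATF6, IRE1 and PERK. This unfolded protein response (UPR) raises transcription of ER chaperones through the ER stress response element in their promoters.

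The 8 libraries held 13.38 to 15.84 M counts. Clic4, the gene knocked out in the other genotype, was between 313.0 and 326.7 counts per M counts (CPM) in them and between 64.16 and 75.91 CPM in the 7 knockout libraries. Untreated replicate 9 is labelled wild type in its title and knockout in its genotype field. Its Clic4 level was 326.7 CPM, and it was kept as wild type. The same library stood apart in the summed level of 15 blood and immune markers, at 126.2 CPM against 4.34 to 5.38 CPM in the other untreated and 3.84 to 5.68 CPM in the treated libraries. S100a9 was at 51.2 CPM and Lyz2 at 19.6 CPM there, S100a9 was at 0 in the other 7 libraries, and Ms4a1 was at 0 in all 8. The cells had high vimentin (Vim, 2659 to 2857 CPM) together with the keratins Krt8 and Krt18 (333 to 673 CPM), while the epithelial genes Epcam and Cdh1 did not exceed 0.145 CPM and Cldn7 was at 0. Of the other mesenchymal markers, Zeb1 was at 54.3 to 58.4 CPM and Twist1 at 7.02 to 8.27 CPM, while Cdh2 did not exceed 0.32 CPM.

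The response was small. By edgeR's quasi-likelihood test with Benjamini-Hochberg adjustment over all 13085 genes, 2 genes (0.0153%) passed an adjusted p of 0.05: Wdr54 rose and Selenos fell. Unadjusted p under 0.05 was reached by 847 genes (6.47%), 424 of them higher with H2O2 (3.24%) and 423 lower (3.23%). All 4 treated libraries lay above all 4 untreated ones for 242 genes (1.85%) and below them for 256 (1.96%). For 10859 genes (83%) the 95% interval of the fold change lay within 1.5-fold in either direction. A few of these had no counts in any wild-type library and no fitted change, so their interval has no width and bounds nothing. The median half-width of that interval was 0.08 on the log2 scale for the 257 most highly expressed genes, 0.15 for the 5589 genes at 5 to 50 CPM and 0.82 for the 1077 genes under 1 CPM, so a change could be bounded closely only in expressed genes. The plot of fold change against level shows how narrow the spread was.

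**Figure D1:**
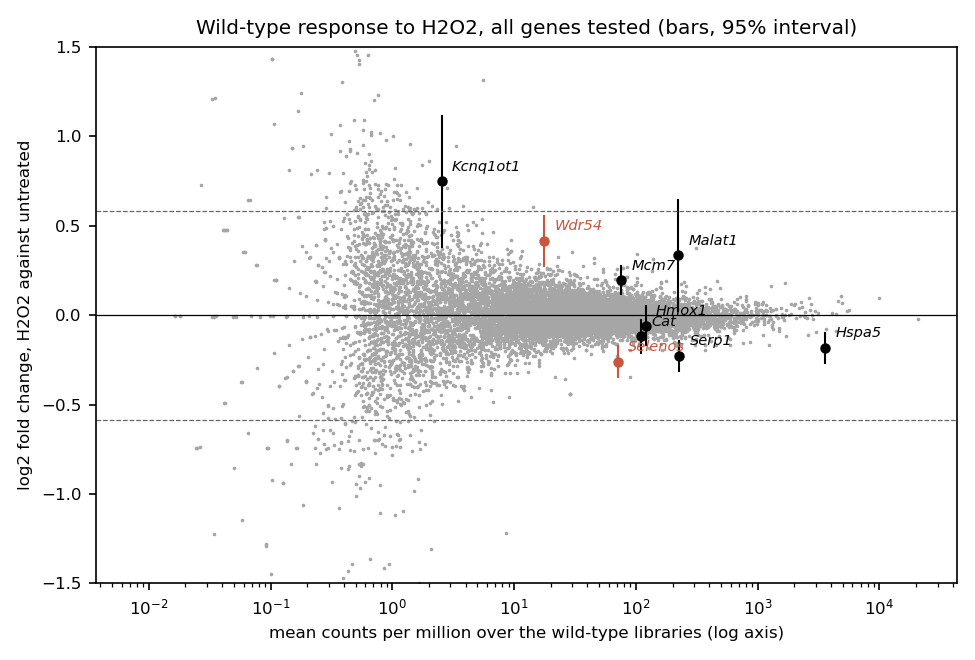
Log2 fold change of each tested gene, H2O2 against untreated wild-type cells, over its mean level in CPM (log axis), with dashed lines at 1.5-fold and 95% intervals for the labelled genes. Wdr54 (0.42) and Selenos (-0.26), in red, passed the adjusted threshold; 77 genes lie outside the plotted range, and wide scatter is seen at low levels.

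Wdr54 encodes a WD-repeat protein and is annotated on mm10 at chr6:83149361-83156397 on the minus strand. It was at 14.1, 14.6, 15.0 and 16.9 CPM in untreated replicates 9 to 12. In treated replicates 13 to 16 it was at 18.4, 20.9, 21.7 and 19.97 CPM. Every treated library was above every untreated one, and the means were 15.1 ± 1.23 and 20.3 ± 1.39 CPM (SD, n = 4 each). Wdr54 rose by 0.42 on the log2 scale (33.4%; 95% interval 0.27 to 0.56; edgeR adjusted p = 0.0273). Its span overlaps Rtkn on the opposite strand, at 168.5 CPM untreated and 174.9 CPM treated on average (log2 0.05). The libraries were stranded, but the sources used here do not state whether counting used the strand, and without it reads of such partners cannot be told apart. Other genes named below overlap a gene on the opposite strand too, among them Mcm7, Serp1, Surf4, 9430064I24Rik, Manf, Tk1, Mdh1, Prdx2 and Kcnq1ot1.

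Selenos encodes selenoprotein S, an ER membrane protein that takes part in the export of misfolded proteins from the ER for degradation, and is annotated on mm10 at chr7:66079649-66089405 on the plus strand. It was at 78.2, 83.1, 76.5 and 71.1 CPM in untreated replicates 9 to 12 and at 67.9, 61.2, 65.1 and 63.4 CPM in treated replicates 13 to 16. The groups did not overlap, and the untreated library nearest to the treated range was replicate 12. The means were 77.2 ± 4.97 and 64.4 ± 2.83 CPM (SD, n = 4 each). Selenos fell by 0.26 on the log2 scale (95% interval -0.35 to -0.17; edgeR adjusted p = 0.0273).

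Both calls depended on single libraries. Neither gene was called when untreated replicate 9, 10 or 11 or treated replicate 14, 15 or 16 was left out, with adjusted p between 0.0849 and 0.4. Without untreated replicate 12 the count of called genes was 13, and without treated replicate 13 it was 7, with Wdr54 and Selenos among them both times. The fold changes themselves stayed between 0.38 and 0.47 for Wdr54 and between -0.30 and -0.22 for Selenos, and without replicate 9, the library with blood markers, they were 0.38 and -0.25.

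The promoters of both called genes are shown because they are the ones that passed the test. Sequences are from RefSeq on GRCm38.p6, 250 bases before to 50 after the annotated start, 5′ to 3′ on the strand of the gene. They were searched on both strands for the ER stress response element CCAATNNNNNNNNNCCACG and the related element II, which is ATTGG, any 1 base and CCACG, and these letters were found in neither window.
Selenos, chr7:66079399-66079698, plus strand: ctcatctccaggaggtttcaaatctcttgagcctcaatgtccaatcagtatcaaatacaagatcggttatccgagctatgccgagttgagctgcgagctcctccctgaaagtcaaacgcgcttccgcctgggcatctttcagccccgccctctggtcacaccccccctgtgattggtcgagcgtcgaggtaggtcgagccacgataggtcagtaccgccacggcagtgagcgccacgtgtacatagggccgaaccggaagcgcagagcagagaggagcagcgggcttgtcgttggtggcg
Wdr54, chr6:83156330-83156629, minus strand: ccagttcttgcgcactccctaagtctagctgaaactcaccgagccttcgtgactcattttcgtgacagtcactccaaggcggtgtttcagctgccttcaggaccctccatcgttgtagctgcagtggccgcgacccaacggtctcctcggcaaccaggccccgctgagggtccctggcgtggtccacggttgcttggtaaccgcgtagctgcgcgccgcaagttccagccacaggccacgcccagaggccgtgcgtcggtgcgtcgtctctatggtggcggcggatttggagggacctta

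Genes with the next smallest p-values at a mean of at least 5 CPM are given by their values, since none passed the adjusted threshold. On the lower side, several encode proteins of the ER. Serp1, which stabilises newly made proteins at the ER membrane, was at 258.5, 258.3, 244.4 and 220.1 CPM in untreated and 220.2, 204.1, 210.4 and 204.2 CPM in treated libraries. Its log2 fold change was -0.23 (edgeR adjusted p = 0.082), and untreated replicate 12 lay just inside the treated range. Surf4, a receptor that loads cargo into vesicles leaving the ER, was at 371.2 to 423.0 CPM untreated and 327.9 to 367.6 CPM treated (log2 -0.19, edgeR adjusted p = 0.154), without overlap. Rpn1, a subunit of the enzyme that attaches sugar chains to proteins in the ER, was at 865.6 to 931.0 CPM untreated and 789.0 to 852.6 CPM treated (log2 -0.15, edgeR adjusted p = 0.241). Ppic, a cyclophilin that isomerises proline bonds, had a log2 value of -0.22 and Car6, a secreted carbonic anhydrase, one of -0.35.

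The ER chaperone BiP, encoded by Hspa5, and its co-chaperone Dnajb9 were also among the 10 lower genes. Hspa5 was at 3895, 4005, 3833 and 3502 CPM in untreated and 3693, 3198, 3326 and 3216 CPM in treated libraries, with overlap through replicates 12 and 13. Dnajb9 was at 80.3, 78.9, 76.8 and 68.8 CPM untreated and 68.2, 62.8, 65.3 and 63.5 CPM treated, without overlap. Their log2 fold changes were -0.18 and -0.23 (edgeR adjusted p = 0.273 and 0.241). The remaining 2 of the 10, Gsta1 (log2 -0.19) and Gm3776 (-0.25), are glutathione S-transferase genes so alike that reads could be split between them, and their values are uncertain.

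**Figure D2:**
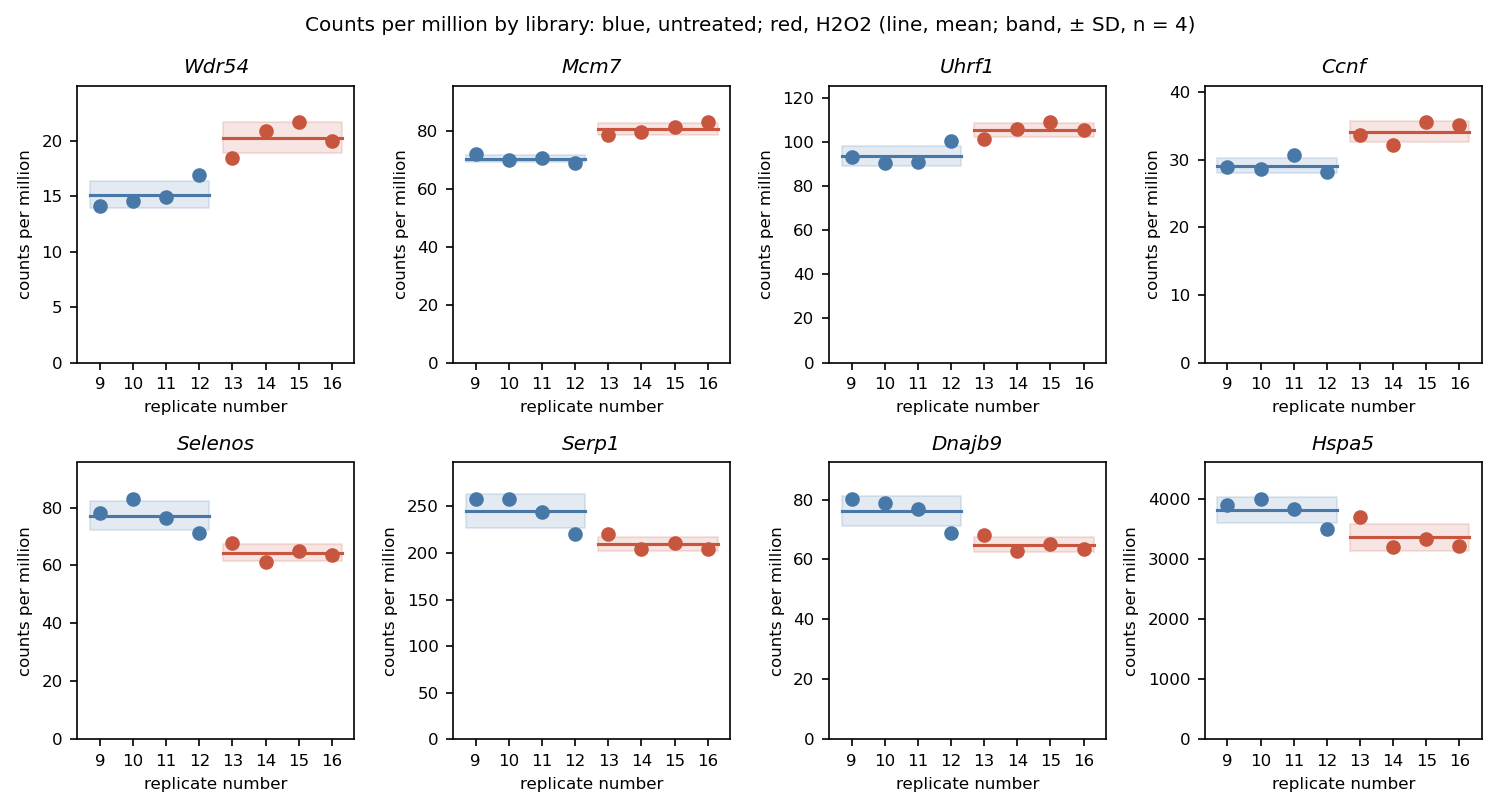
CPM of 8 genes in each wild-type library, untreated in blue (replicates 9 to 12) and H2O2-treated in red (replicates 13 to 16), with the mean as a line and ± SD as a band (n = 4). The upper row holds genes with higher and the lower row genes with lower treated means; Serp1 and Hspa5 overlap between the groups and the other 6 do not.

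On the higher side, the genes next to Wdr54 included several of the cell cycle. Mcm7, a subunit of the helicase that opens replication origins, was at 71.8, 69.9, 70.5 and 68.8 CPM untreated and 78.6, 79.5, 81.2 and 82.9 CPM treated. The groups did not overlap, and its log2 fold change was 0.20 (95% interval 0.11 to 0.28; edgeR adjusted p = 0.154). Ccnf, which encodes cyclin F, was at 28.2 to 30.8 CPM untreated and 32.1 to 35.6 CPM treated (log2 0.23, edgeR adjusted p = 0.226). Uhrf1, which helps to copy DNA methylation after replication, was at 90.3 to 100.5 CPM untreated and 101.5 to 109.0 CPM treated (log2 0.17, edgeR adjusted p = 0.286). Plekhn1 (log2 0.26), Sfi1, a centrosome protein gene (0.22), Nolc1, of the nucleolus (0.15), Adamts1, a secreted protease (0.25), the unnamed 9430064I24Rik (0.42) and the pseudogene Pisd-ps1 (0.33) completed the 10, all without overlap of replicates. Fitted changes lay between 11.3% and 33.8% for these 10 and between -21.4% and -9.83% for the 10 lower genes.

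No member of any of 32 lists of pathway genes and cell markers was called by edgeR with the filter on low counts. Of these lists, that of ER chaperones and UPR genes had the largest share of members lower at unadjusted p under 0.05. None of its 21 tested members was called by edgeR, limma-voom or DESeq2, although edgeR with no filter on low counts called 2, Dnajb9 and Hspa5. All 21 had a log2 fold change below 0, against 50.2% of all tested genes. By edgeR, 17 members (81%) were lower at unadjusted p under 0.05, where 3.23% of all genes were. The median log2 fold change was -0.13, with a range from -0.23 for Dnajb9 to -0.06 for Atf6, against -0.00044 over all tested genes. Without overlap of replicates, 4 members were lower, against 1.96% of all genes: Dnajb9, Sdf2l1, Calr and, named after its values were seen, the UPR sensor gene Ern1.

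Several chaperones were among the most highly expressed genes. Hsp90b1, which encodes the ER chaperone GRP94, was at 4524, 4534, 4778 and 4389 CPM untreated and 4594, 4262, 4189 and 4106 CPM treated (log2 -0.09). Calr, encoding the lectin chaperone calreticulin, was at 3700 to 3740 CPM untreated and 3428 to 3682 CPM treated (log2 -0.08). Manf, a secreted ER stress protein, was at 417.7, 398.7, 390.0 and 354.0 CPM untreated and 367.7, 328.7, 351.5 and 340.7 CPM treated (log2 -0.17). Sdf2l1, a partner of BiP, was at 223.9 to 248.6 CPM untreated and 197.3 to 218.3 CPM treated (log2 -0.16). The 21 fitted changes lay between -14.7% and -4.01%, and each 95% interval was within 1.5-fold.

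The spread within groups was of the same order as the difference between them. Relative to the untreated mean, the median of the 21 genes was 0.04, 0.05, -0.02 and -0.09 on the log2 scale in untreated replicates 9 to 12 and -0.04, -0.17, -0.12 and -0.16 in treated replicates 13 to 16. Untreated replicate 12 was thus lower than treated replicate 13, and 20 of the 21 genes were below the untreated mean in replicate 12. With each library left out in turn, all 21 genes stayed below 0 and the list median stayed between -0.17 and -0.11. The number at unadjusted p under 0.05 ran from 12, when replicate 9, 10, 14 or 16 was left out, to 18, when replicate 12 was. With replicate 12 left out, Dnajb9, Hspa5 and Manf were called, and with replicate 13 left out, Hspa5.

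The ER stress response elements of the list are shown because its members moved in 1 direction together. RefSeq promoters were found for 18 of the 21 genes, and 8 of them (44.4%) held the ER stress response element, against 0.119% of all 32851 promoter windows of the same length. Element II was found in 2 of the 18 (11.1%) and in 0.0365% of all windows. The element was described in such genes, so its presence is a description of the list and no site was tested here. Each match is printed 5′ to 3′ on its own strand, with the fixed letters in capitals. In the ER stress response element the first 5 are the CCAAT box, which alone was in 37.4% of all windows. Element II begins with ATTGG, the same box read on the other strand.
Calr, chr8:84847075-84847093, plus strand: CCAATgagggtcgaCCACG
Canx, chr11:50325800-50325818, minus strand: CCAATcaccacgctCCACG
Creld2, chr15:88819520-88819538, minus strand: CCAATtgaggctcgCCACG
Dnajc3, chr14:118937827-118937845, plus strand: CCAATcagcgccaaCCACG
Hsp90b1, chr10:86705638-86705656, minus strand: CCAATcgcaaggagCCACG
Hsp90b1, chr10:86705533-86705551, plus strand: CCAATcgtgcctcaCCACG
Hspa5, chr2:34772025-34772043, plus strand: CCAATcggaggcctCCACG
Pdia6, chr12:17266491-17266509, plus strand: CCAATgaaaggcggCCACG
Syvn1, chr19:6046532-6046550, plus strand: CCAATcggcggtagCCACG
Dnajb11, chr16:22857852-22857862, plus strand: ATTGGcCCACG
Herpud1, chr8:94386377-94386387, plus strand: ATTGGgCCACG

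Hsp90b1 held 2 matches on opposite strands. The promoter of Hspa5 is given whole, with the element in capitals, since Hspa5 is the list member among the 10 lower genes in which the letters were found. The match began at position -65 relative to the annotated start.
Hspa5, chr2:34771840-34772139, plus strand: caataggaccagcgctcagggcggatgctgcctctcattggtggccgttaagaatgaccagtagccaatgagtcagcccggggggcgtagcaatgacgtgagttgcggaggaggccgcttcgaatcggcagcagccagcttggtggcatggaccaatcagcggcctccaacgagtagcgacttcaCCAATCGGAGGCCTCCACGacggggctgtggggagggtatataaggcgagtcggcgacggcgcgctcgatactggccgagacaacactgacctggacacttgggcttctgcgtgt

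**Figure D3:**
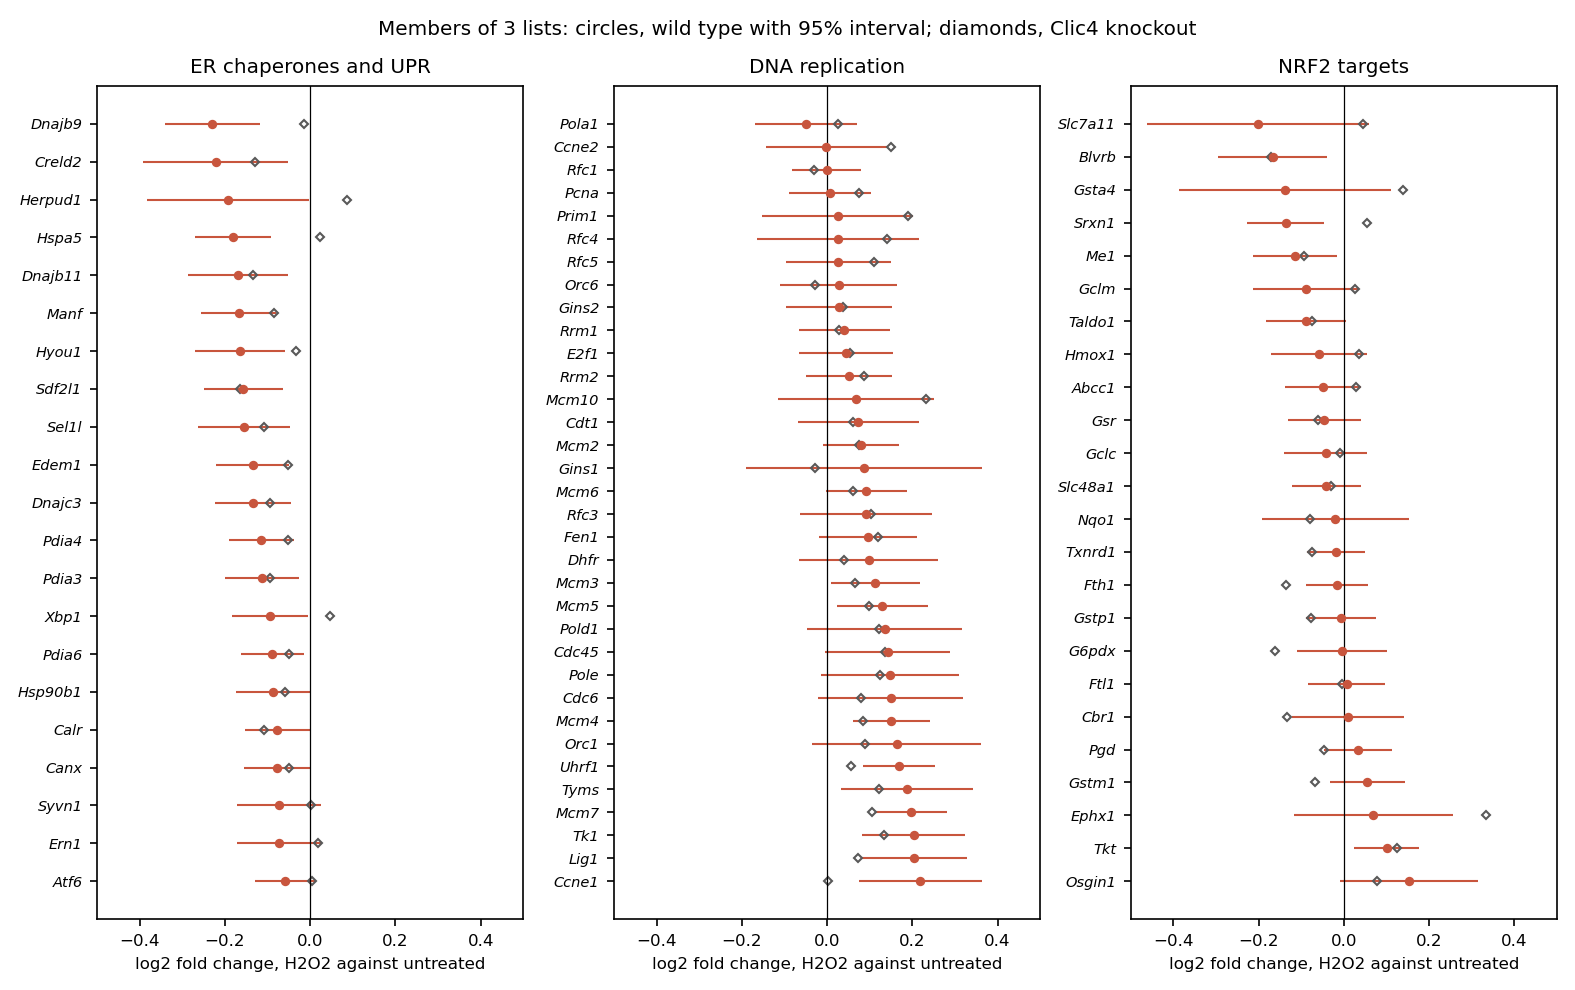
Log2 fold change of each tested member of 3 lists, H2O2 against untreated, in wild-type cells (circles with 95% intervals) and in Clic4-knockout cells (diamonds). All 21 ER chaperone and UPR genes lie below 0 in wild type, 31 of 34 DNA replication genes lie above 0, and the 24 NRF2 targets lie on both sides.

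Targets of the integrated stress response, which ATF4 drives when translation is slowed, had 20 of 23 members below 0 with a median of -0.07 on the log2 scale. By edgeR, none was called and 4 were lower at unadjusted p under 0.05 (17.4%, against 3.23% of all genes). Asns, which makes asparagine, was at 310.0, 312.4, 306.7 and 287.2 CPM untreated and 288.1, 266.6, 274.1 and 274.2 CPM treated (log2 -0.14, edgeR adjusted p = 0.485). Untreated replicate 12 was again the library inside the treated range. Sesn2, a stress-induced regulator of growth signalling, was at 51.3 to 60.2 CPM untreated and 48.6 to 50.5 CPM treated (log2 -0.19). The number at unadjusted p under 0.05 was 2 without replicate 9, 10 or 14.

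Genes of DNA replication leaned the other way. Of 34 tested members 31 were above 0, against 49.7% of all genes, and the median was 0.09 on the log2 scale. By edgeR none was called, while 9 were higher at unadjusted p under 0.05 (26.5%, against 3.24% of all genes) and none lower. DESeq2, and edgeR with no filter on low counts, called 1 of them, Mcm7. With each library left out in turn, 27 to 33 members were above 0 and 7 to 14 were higher at unadjusted p under 0.05, the 14 being without replicate 13. Tk1, the thymidine kinase, was at 45.2, 41.9, 40.8 and 40.2 CPM untreated and 45.5, 47.9, 49.2 and 51.2 CPM treated (log2 0.20). Mcm4, of the same helicase as Mcm7, was at 61.9 to 70.8 CPM untreated and 69.7 to 74.5 CPM treated (log2 0.15), with overlap. Pcna, the sliding clamp, was at 166.8 and 167.7 CPM on average (log2 0.01), so the members did not share 1 size of difference.

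Of 30 mitosis genes, 25 were above 0 with a median of 0.08 on the log2 scale, none was called by edgeR, and 9 were higher at unadjusted p under 0.05 (30%, against 3.24% of all genes). Incenp, of the chromosomal passenger complex, was at 31.2 to 34.2 CPM untreated and 34.8 to 39.0 CPM treated (log2 0.18). The mitotic kinase gene Plk1 was at 21.2 to 22.8 CPM untreated and 23.9 to 26.8 CPM treated (log2 0.18). These genes varied between untreated libraries: the list median relative to the untreated mean was 0.07, -0.05, 0.08 and -0.09 in replicates 9 to 12 and 0.06 to 0.11 in the treated ones. The median was 0.03 without replicate 12, and the number at unadjusted p under 0.05 was 2 without replicate 10 or 13 and 3 without replicate 12.

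E2F factors drive many replication genes, so their promoters were searched on both strands for TTTCCCGC, TTTCGCGC, TTTGCCGC and TTTGGCGC. Of the 28 replication genes with a RefSeq promoter, 12 (42.9%) held a match in at least 1 window. The share was 2.6% of all genes with a promoter and 4.83% of those tested. Of the 25 mitosis genes with a promoter, 1 (4%) held a match. These shares describe the lists, and no site was tested here. Mcm7 is shown because it had the smallest p of the replication list. Its upstream window on GRCm38.p6 held 2 matches, in capitals, the first on the opposite strand.
Mcm7, chr5:138171834-138172133, minus strand: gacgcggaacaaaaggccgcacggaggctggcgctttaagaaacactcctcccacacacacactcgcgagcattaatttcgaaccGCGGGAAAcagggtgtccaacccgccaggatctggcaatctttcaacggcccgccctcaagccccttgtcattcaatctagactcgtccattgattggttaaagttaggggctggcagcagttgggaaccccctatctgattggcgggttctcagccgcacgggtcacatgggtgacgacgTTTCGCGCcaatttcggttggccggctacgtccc

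**Figure D4:**
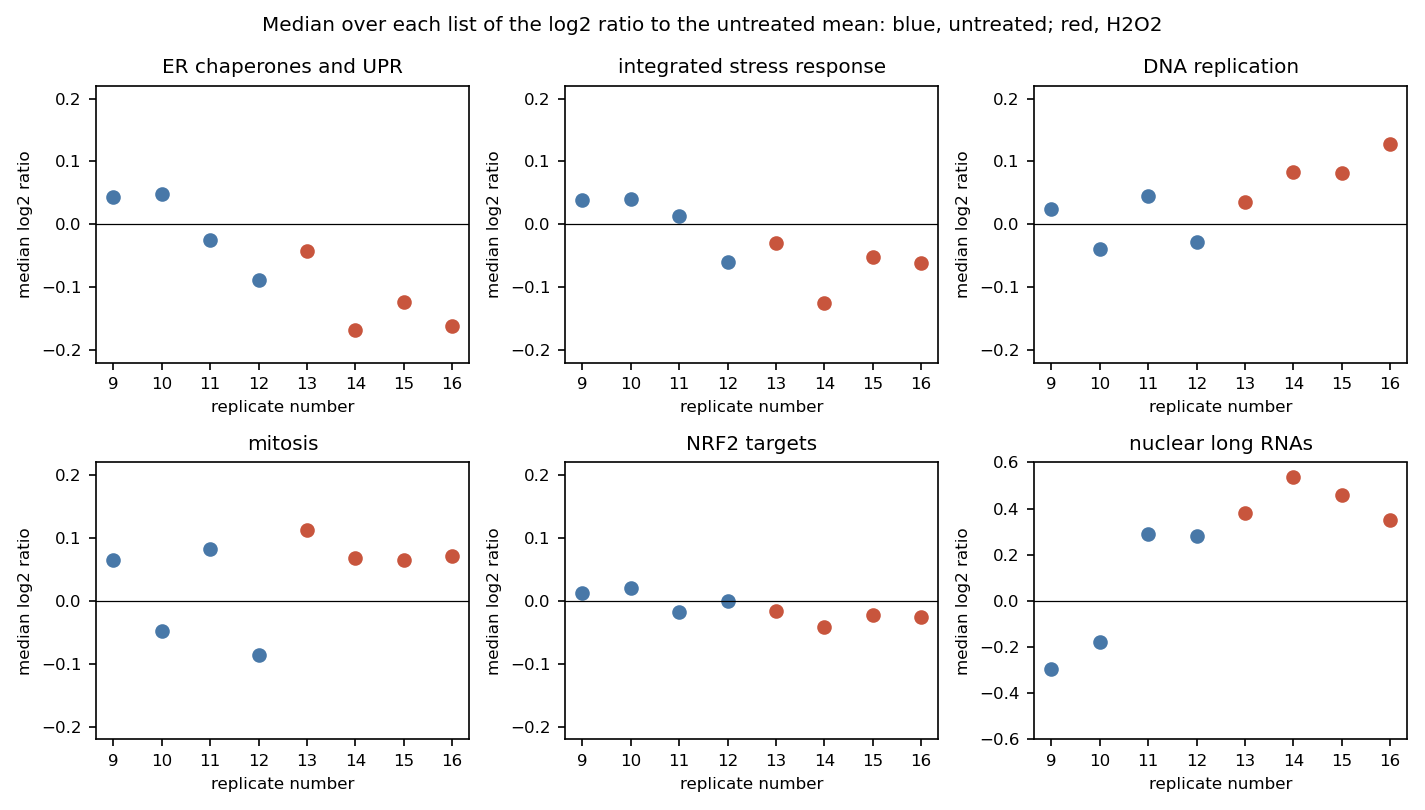
Median over the members of each of 6 lists of the log2 ratio to the mean of the untreated libraries, by wild-type library (blue, untreated; red, H2O2; the panel of nuclear long RNAs has a wider axis). For ER chaperones and UPR genes replicate 12 (-0.09) is below replicate 13 (-0.04), and for nuclear long RNAs replicates 9 and 10 (-0.29 and -0.18) stand apart from the other 6.

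The genes best known for answering H2O2 differed little. Of 24 NRF2 targets, 17 were below and 7 above 0, the median was -0.03 on the log2 scale, and each 95% interval lay within 1.5-fold. By edgeR none was called, 1 was higher (4.17%) and 3 were lower (12.5%) at unadjusted p under 0.05, where 3.24% and 3.23% of all genes were. The median was -0.02 without replicate 9 and -0.05 without replicate 12 or 13, and the number of lower members at unadjusted p under 0.05 was 1 without replicate 14 and 5 without replicate 12 or 13. Hmox1, the heme oxygenase, was at 121.8, 129.8, 119.7 and 118.3 CPM untreated and 115.9, 118.0, 116.6 and 119.7 CPM treated. Its log2 fold change was -0.06 with a 95% interval of -0.17 to 0.05, so the interval excludes a rise of 1.5-fold. Nqo1, a quinone reductase, was at 17.5 to 21.3 CPM untreated and 17.0 to 20.6 CPM treated (log2 -0.02, 95% interval -0.19 to 0.15). Txnrd1, the thioredoxin reductase, had a log2 value of -0.02 (95% interval -0.09 to 0.05) and Gclm, of glutathione synthesis, one of -0.09 (-0.21 to 0.03).

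The 3 lower targets at unadjusted p under 0.05 were Srxn1, Blvrb and Me1, and the higher one was Tkt. Srxn1, the sulfiredoxin that repairs peroxiredoxins, was at 84.1, 78.2, 81.3 and 76.0 CPM untreated and 74.1, 73.0, 74.8 and 68.7 CPM treated. The groups did not overlap, with a log2 fold change of -0.14 (edgeR adjusted p = 0.53). Tkt, a transketolase of the pentose phosphate pathway, was at 279.0 to 290.7 CPM untreated and 288.7 to 312.0 CPM treated (log2 0.10). Blvrb, a biliverdin reductase, had a log2 value of -0.17 and Me1, the malic enzyme that makes NADPH, one of -0.11. The core letters TGACNNNGC of the antioxidant response element, searched on both strands, were in the promoters of 6 of 18 NRF2 targets with an entry (33.3%) and in 14% of all genes with a promoter. None of the 8 genes of NRF2 itself and its regulators was called by edgeR or reached unadjusted p under 0.05, with log2 values of 0.01 for Nfe2l2, which encodes NRF2, and -0.05 for Keap1.

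Among 21 genes listed for the removal of peroxide and superoxide, 13 were below 0, where 50.2% of all genes were. The median was -0.01 on the log2 scale, and each 95% interval was within 1.5-fold. By edgeR none was called. At unadjusted p under 0.05, 2 were lower (9.52%, against 3.23% of all genes) and 1 was higher (4.76%, against 3.24%). The 2 lower were catalase (Cat) and Sesn2, which is also in the integrated stress response list and was counted in both. Cat was at 111.2, 117.3, 119.7 and 108.6 CPM untreated and 108.1, 104.4, 106.5 and 101.6 CPM treated. The groups were separated by less than 1 CPM, between replicates 12 and 13, and the log2 fold change was -0.12 (95% interval -0.22 to -0.02; edgeR adjusted p = 0.695). Prdx1, a cytosolic peroxiredoxin, was at 787.2 to 861.1 CPM untreated and 771.8 to 795.8 CPM treated (log2 -0.07). Prdx2 was at 118.6 to 129.1 CPM untreated and 125.2 to 135.6 CPM treated (log2 0.09), and Gpx1, the main cytosolic glutathione peroxidase, had a log2 value of -0.03. On the length-scaled RPKM values, Prdx1 (288 untreated, 275 treated) had the highest level of Cat, Prdx1, Prdx2 and Gpx1, and Cat (27.5 and 25.4) the lowest.

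Signals of damage were likewise small. Among 20 p53 targets, 13 were below 0 (50.2% of all genes were), and none was called by edgeR. At unadjusted p under 0.05, 2 were lower (10%, against 3.23% of all genes), Ccng1 (log2 -0.13) and Trp53inp1 (-0.17). Another 1 was higher (5%, against 3.24%), Trp53 itself (0.09). Cdkn1a, the cell cycle inhibitor p21, was at 144.7 to 168.6 CPM untreated and 150.4 to 156.3 CPM treated (log2 -0.04, 95% interval -0.18 to 0.11), and Mdm2 had a log2 value of -0.03 (-0.11 to 0.05). The stress factor genes Ddit3 (log2 -0.04, 95% interval -0.25 to 0.17) and Atf3 (-0.05, -0.50 to 0.40) were bounded less tightly. Fos was at 0.456 ± 0.0696 CPM untreated and 0.311 ± 0.18 CPM treated (SD, n = 4 each), too low for a bound within 1.5-fold (log2 95% interval -1.43 to 0.41). Hspa1a, an inducible heat shock protein 70, was at 6.02 ± 1.46 and 5.66 ± 0.838 CPM (log2 95% interval -0.73 to 0.52). Hspa1b, of the same family, was at 15.1 ± 2.14 and 16.8 ± 1.21 CPM (log2 0.16, 95% interval -0.04 to 0.35). Of 22 heat shock genes 15 were above and 7 below 0, and none was called by edgeR. At unadjusted p under 0.05, 1 was higher (4.55%, against 3.24% of all genes) and 1 lower (4.55%, against 3.23%). Of the 20 DNA repair genes none was called by edgeR and 2 were higher at unadjusted p under 0.05 (10%, against 3.24% of all genes), among them the recombination gene Brca2 (log2 0.23).

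Of 20 glycolysis genes 19 were above 0 (median log2 0.06), and 4 were higher at unadjusted p under 0.05 by edgeR (20%, against 3.24% of all genes), with none called. Without replicate 11, 15 were above 0 and the median was 0.03, and without replicate 10, 11, 14, 15 or 16 the number at unadjusted p under 0.05 was 2. Pfkp, a phosphofructokinase, was at 482.8 to 496.9 CPM untreated and 504.2 to 527.9 CPM treated (log2 0.09), without overlap. Of 22 genes listed for the TCA cycle and pyruvate entry 18 were below 0, against 50.2% of all genes. At unadjusted p under 0.05, 1 (4.55%, against 3.23%) was lower: Mdh1, which encodes the cytosolic form of malate dehydrogenase. Mdh1 was at 421.0 to 456.1 CPM untreated and 385.1 to 414.6 CPM treated (log2 -0.15). Nuclear-encoded complex I subunits were below 0 in 28 of 37 (median log2 -0.04), with 1 lower at unadjusted p under 0.05 (2.7%, below the share of all genes). Proteasome subunits were below 0 in 27 of 31 (median log2 -0.03), with 4 lower at unadjusted p under 0.05 (12.9%). Their median was -0.02 without replicate 9 and -0.05 without replicate 12 or 16, and the number at unadjusted p under 0.05 was 0 without replicate 16, 1 without replicate 9, 10 or 14, and 2 without replicate 15. None of the 64 cytosolic ribosomal protein genes was called by edgeR or reached unadjusted p under 0.05.

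Genes encoded by mitochondrial DNA made up 2.75 ± 0.44% of counts in untreated and 2.90 ± 0.116% in treated libraries (SD, n = 4 each). The difference of 0.151 percentage points was smaller than the spread (exact permutation test, two-sided, p = 0.457; the smallest p this design allows is 0.0286). Untreated replicates 9 and 10 were at 2.42% and 2.34%, and replicates 11 and 12 at 3.25% and 2.98%. Of the 13 genes, mt-Nd3, a complex I subunit, was at 93.2, 108.5, 99.2 and 101.4 CPM untreated and 67.0, 81.9, 94.1 and 73.6 CPM treated (log2 -0.35, edgeR adjusted p = 0.53). It overlapped through replicates 9 and 15, and DESeq2 called it.

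The same split of untreated libraries was seen in Malat1 and Neat1, long RNAs kept in the nucleus. Malat1 was at 158.1, 160.0, 237.0 and 236.1 CPM in untreated replicates 9 to 12 and at 241.1, 277.7, 266.7 and 213.9 CPM in treated replicates 13 to 16. Neat1 was at 172.1, 230.3, 344.5 and 338.4 CPM untreated and 332.3 to 378.6 CPM treated. Replicates 9 and 10 were the low ones for both, and they were also the untreated libraries with the highest ER chaperone medians. Whether this has a part in the lower ER genes was not tested. Kcnq1ot1, antisense to Kcnq1, did not show the split, at 1.688, 2.055, 1.809 and 2.041 CPM in untreated replicates 9 to 12. Its treated libraries were at 2.30 to 3.74 CPM, without overlap (log2 0.75, edgeR adjusted p = 0.274).

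The Clic4-knockout libraries allow a test of whether the response differed between genotypes. In knockout cells 7 genes were called by edgeR (0.0535%), all lower with H2O2. For the difference between the wild-type and the knockout response, edgeR called 0 of 13085 genes and limma-voom 0, while DESeq2 called 15, and 808 genes (6.18%) had unadjusted p under 0.05 by edgeR. The log2 fold change of Wdr54 was 0.42 in wild type and 0.09 in knockout (difference 0.32, edgeR adjusted p = 0.67). For Selenos the values were -0.26 and -0.09 (difference -0.17, edgeR adjusted p = 0.797). Neither difference passed the test, which does not show that the responses were alike.

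The ER list had 15 of 21 members below 0 in knockout, and 3 were lower at unadjusted p under 0.05. Its median log2 value there was -0.05, against 0 over all tested genes. The shares of all genes below 0 or at unadjusted p under 0.05 in knockout are not given here. For the difference between genotypes, 4 of the 21 were at unadjusted p under 0.05 by edgeR, against 6.18% of all genes, and none was called. Hspa5 was at -0.18 in wild type and 0.02 in knockout (edgeR adjusted p of the difference 0.67), and Serp1 at -0.23 and 0.02 (0.468). For the integrated stress response, the medians were -0.07 in wild type and 0.06 in knockout, with 20 and 4 of 23 genes below 0, and no member passed the test of the difference by edgeR (2 at unadjusted p under 0.05). The replication list had medians of 0.09 and 0.08, and the mitosis list of 0.08 and 0.07.

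Most fitted changes of at least 1.5-fold were at low levels. They numbered 332 genes (2.54%), of which 229 were under 1 CPM and 97 at 1 to 5 CPM in the group with the higher mean. At a mean of at least 5 CPM the largest was that of Gm10243, at no more than 0.135 CPM in the untreated libraries and at 106.9, 0.685, 0.0742 and 25.6 CPM in treated replicates 13 to 16, so that 2 of 4 libraries carried it (edgeR adjusted p = 0.658). S100a8, a gene of neutrophils, was at 29.4 CPM in replicate 9, the library with blood markers, against 2.85 to 3.54 CPM in the other untreated ones. Gm10095, named like Gm20605 after its values were seen, was at 1.63 to 5.20 CPM untreated and 5.22 to 14.6 CPM treated, without overlap (log2 1.32, edgeR adjusted p = 0.646). Gm20605 was at 6.52 to 13.9 CPM untreated and 13.1 to 20.1 CPM treated, with overlap (log2 0.61, edgeR adjusted p = 0.658).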

How the data were processed

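Per the labels' protocols, stranded TruSeq mRNA libraries were sequenced from both ends on a NextSeq. The authors deposited expected counts per gene symbol and RPKM values; cutadapt, STAR, RSEM and build mm10 are named in the submitters' processing notes, with settings not given in the sources used here. The deposited expected counts are whole numbers and were used as they are. RPKM, made by the authors, served only for levels between genes. Counts of all 15 libraries were filtered with filterByExpr (13085 genes, 99.917% of counts), scaled by TMM and fitted with edgeR 4.0.16 (limma 3.58.1, R 4.3.3) as 4 group means with robust quasi-likelihood, 11 residual degrees of freedom and Benjamini-Hochberg adjustment; CPM are TMM-scaled except for the marker levels of blood, epithelial and mesenchymal cells, which are scaled by total counts alone. The edgeR fit behind the wild-type comparison was tested on simulated counts, and the other steps were not. Named genes were those called, those with the smallest p at 5 CPM or more to fill 10 each way, the Clic genes, up to 4 with the smallest p and 2 with the highest level of each list, and 16 known stress genes. The comparison, the lists and these rules were chosen with earlier results of these data known. Alternatives were size factors, DESeq2 1.42.0, limma-voom, filters, dispersion, samples fitted, and each library left out; that of list medians was chosen after seeing the data. Between replicates of a group, counts differed by 2.07 to 6.28 times the sampling noise (chi-square per degree of freedom), so none was counted as a repeat. Values of some genes that the rule names are not reported here.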

Additional observations from a re-analysis of the deposited data

Results flagged for a closer look

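Of 84 groups of 4 libraries checked, 6 held a library far from the other 3 by Dixon's criterion at the 95% level, and chance alone marks about 1 group in 20. The summed level of 15 blood and immune markers was 126.2 CPM in untreated replicate 9 and 4.34 to 5.38 CPM in the other untreated libraries. Ppic was at 48.27 CPM in the same library and at 45.2 to 45.5 CPM in the others, and at 36.73 CPM in treated replicate 14 against 40.3 to 41.0 CPM. Car6 was at 23.1 CPM in untreated replicate 11 and at 24.6 to 24.7 CPM in the other 3. Gclm was at 41.29 CPM in treated replicate 13 and at 36.4 to 36.8 CPM in the other 3, so it was the treated library nearest to the untreated mean of 40.3 CPM. The share of counts from mitochondrially encoded protein genes was 2.727% in treated replicate 16 and 2.94% to 2.98% in the other 3.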

How the results depend on the processing

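The count of called genes in wild type was 2 with DESeq2 size factors, with limma-voom, with at least 1 CPM in 4 libraries and without mitochondrially encoded genes, and 3 at an adjusted p of 0.1. It was 9 with DESeq2, 12 with no filter on low counts, 0 without robust dispersion (880 genes at unadjusted p under 0.05 by edgeR) and 0 with wild-type libraries alone (967 genes). DESeq2 called Wdr54, Selenos, Serp1, Surf4, Rpn1, Gm3776, Mcm7, mt-Nd3 and Gm10243. Leaving out 1 library at a time gave 0 to 13. For the difference between genotypes the count was 15 with DESeq2, 5 with no filter, 3 without robust dispersion and 0 under the other settings, and 0 to 3 with 1 library left out, the 3 being without treated replicate 15. The adjusted p of both Wdr54 and Selenos was 0.0596 without robust dispersion and 0.0739 with wild-type libraries alone; the cause was not tested. Among the genes followed singly, 6 changed sign, each with a library left out: log2 values ran from -0.0749 to 0.0406 for Nqo1, -0.0130 to 0.0178 for Nfe2l2, -0.0760 to 0.00116 for Cdkn1a, -0.114 to 0.0194 for Atf3, -0.114 to 0.00798 for Ddit3 and -0.216 to 0.0619 for Hspa1a. The difference in mitochondrial share ran from 0.0156 to 0.318 percentage points, with 0.158 per nuclear count. The 9 list medians examined kept their direction under each of 8 settings. They also kept it with each library left out in turn, but their sizes moved more there. The median of mitosis ran from 0.0331 to 0.1075 on the log2 scale, and that of glycolysis from 0.0286 to 0.0798. No paired analysis was possible because treated and untreated libraries share no replicate number. Depth limited genes under 1 CPM, of which 2 of 1077 could be bounded within 1.5-fold.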

Other observations

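Of 23 cholesterol synthesis genes, not described above, 18 were above 0 with H2O2 in wild type, against 49.7% of all genes, and the median log2 value was 0.05 in wild type and -0.07 in knockout. By edgeR no gene was called in wild type or for the difference between genotypes (4 at unadjusted p under 0.05 for the difference), and 2 (8.7%, against 3.24% of all genes) were higher at unadjusted p under 0.05 in wild type. Of 15 genes of fatty acid synthesis and desaturation 9 were above 0 in wild type (median log2 0.02), and none was called or reached unadjusted p under 0.05 by edgeR. Hsd17b7, of late sterol synthesis, was at 23.5 to 26.6 CPM untreated and 27.1 to 30.2 CPM treated in wild type (log2 0.15). Metallothionein genes, which answer metals and oxidants, were not called by edgeR in wild type either. None of the list of 11 metallothionein and iron genes was at unadjusted p under 0.05 there. Mt1 was at 133.6 to 142.4 CPM untreated and 137.6 to 152.3 CPM treated in wild type (log2 0.06). In knockout Mt1 was lower with H2O2 and was called (log2 -0.25, edgeR adjusted p = 0.0241). Its difference between genotypes was 0.31 on the log2 scale and was not called (edgeR adjusted p = 0.148).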
